A study of Homo sapiens with 4 samples.

Results

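Readthrough genes are annotated genes whose transcripts begin in 1 gene and continue, on the same strand, into its downstream neighbour. They were taken here as the genes of the deposited expression table whose symbol holds exactly 1 hyphen with a listed gene symbol on each side of it, such as INO80B-WBP1. Of 60302 listed genes, 109 had such a symbol. The 95 with a value above 0 in at least 1 of the 4 samples were kept, and the 14 listed at 0 in every sample were not. The 95 genes have 188 partner genes and make up 93 loci, because in 2 loci neighbouring readthrough genes share a partner. The rule uses values only through being above 0, and it was set with earlier results of these data known.

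The 4 samples are HMLE cells, an immortalized line of human breast epithelial cells. In the 2 control samples the cells stably carried a lentiviral non-specific short hairpin RNA, and in the 2 knockdown samples (hnRNPF KD) one against hnRNPF, a splicing regulator that binds G-rich RNA. RNA was extracted with Trizol, selected for poly(A) and sequenced as stranded paired-end libraries, and the table gives 1 FPKM value (fragment numbers corrected for transcript length and sequencing depth) per gene and sample. Whether the samples of 1 group stem from separate infections, cultures or hairpins is not in the labels, so the spread behind every p-value is that between these samples and may be technical.

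A transcript normally ends when the cleavage and polyadenylation complex cuts the nascent RNA and RNA polymerase II is released downstream. When the cut is not made at the first gene, the polymerase can go on into the next one, and splicing can join an exon of the upstream gene to an exon of the downstream gene. Such joined transcripts may encode a fusion of both proteins, or hold an early stop codon that makes them a target of nonsense-mediated decay, the pathway that degrades transcripts with premature stops. The readthrough gene shares most of its exon sequence with its partners, so only the fragments that cross the join, or that pair across it, belong to it alone.

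The join is therefore the sequence that sets a readthrough transcript apart from its neighbours. Of the 95 genes, 92 were matched by identifier to GENCODE 29, and each of the 92 had a transcript tagged there as readthrough. A join was found for 87. In 71 of them the upstream exon ended where an internal exon of the first partner ends, in 75 the downstream exon started where an internal exon of the second partner starts, and in 61 both were so. The joins of the genes on which the results below turn are given with the last 15 bases from the upstream exon in lower case and the first 15 bases of the downstream exon in capitals, 5′ to 3′ on the transcript strand, from the GENCODE 29 transcripts.
NME1-NME2: catacaagttggcagGACCATGGCCAACCT
RTEL1-TNFRSF6B: caacggcaccttcagGCCTCTAGGATGTGC
INO80B-WBP1: cccccttttggctacCTTCGAGAGCTGTGC
TVP23C-CDRT4: acagtaaagtggctgGAATCTGAACCTGTG
PRR5-ARHGAP8: attcctgcatcctggAGCTGCAGAGAGACA
RBM14-RBM4: gtgacgtggtgaaagGCAAACGAATGCACG
BLOC1S5-TXNDC5: caggaacgaaaaaagGTGTGGACACTGCCA
BIVM-ERCC5: agaaaaacaaagaagGTTGGGGGAAATTTG
TMEM189-UBE2V1: tctgcatcaccacagGAGTAAAAGTCCCTC
RPL36A-HNRNPH2: attttccggaaaaagCTACACCAAAATTGC
The INO80B-WBP1 and BLOC1S5-TXNDC5 joins lie in transcripts typed as nonsense-mediated decay, that of RTEL1-TNFRSF6B in one typed as a retained intron, and the other joins printed in protein-coding transcripts. The upstream exon end of INO80B-WBP1 is the only one of these that is not an internal exon end of its first partner.

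The joins of SLX1A-SULT1A3 and SLX1B-SULT1A4 were identical over the same 30 bases (tcagaattagaagagGAACATGGAGCTGAT). These loci are near-identical copies on chromosome 16, so how fragments divide between them is uncertain. Because hnRNP F binds runs of G, the letters GGG were counted on the transcript strand in the last 50 exon bases before each join. They were present in 37 of 87 joins (42.5%) and in 429 of 891 internal exon ends of the first partners (48.1%). Exon ends used by the joins were not left out of the 891. In 71 joins the upstream exon ends at such an internal exon end, so the counts are not of separate sets. Among the joins printed above, those of NME1-NME2, INO80B-WBP1, TVP23C-CDRT4, PRR5-ARHGAP8, BLOC1S5-TXNDC5, BIVM-ERCC5 and RPL36A-HNRNPH2 had GGG in that window. This is a description of the letters and shows no binding.

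All 95 readthrough genes lie on the chromosome and strand of both partners, and the first-named partner is the upstream one in 94 (PRH1-PRR4 is the exception). The partners overlap each other in 11 cases. In the other 84 the gap between them had a median of 5161 bp and was under 5000 bp in 41. The widest gap, 573553 bp, was that of IQCJ-SCHIP1. In GENCODE 29, 59 of the 92 matched genes had a protein-coding transcript, 33 had none, and 50 had a transcript typed as nonsense-mediated decay.

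Over the whole table the FPKM summed to between 391184 and 396135 per sample, and between 12664 and 13390 genes reached 1 FPKM in a sample. Fragment totals are not listed, and whole reads were not recovered from the values, so the depth behind them is not known. HNRNPF (chromosome 10, 43881065 to 43904614 of GRCh37, minus strand) was listed at 154 and 153 FPKM in controls 1 and 2, and 18.7 and 16.6 FPKM with knockdown. Its mean was 8.71-fold lower in the knockdown samples (log2 fold change -3.05, SE 0.0986, limma adjusted p = 0.0251). The adjusted p was 0.290 without control 1, 0.103 without control 2, 0.259 with no filter on low values, 0.0995 with no intensity trend and 0.164 with the replicate number as a block, so the call was lost there while the difference stayed. Of the marker genes checked, 6 of 6 basal mammary epithelial markers reached 1 FPKM, with a summed level of 7378 to 11057 FPKM in the controls and 9366 to 10492 in the knockdown samples. Among markers of other cells, 3 of 5 luminal, 1 of 5 fibroblast (COL1A1, 9.24 to 12.3 FPKM), 1 of 4 immune (CD68) and 0 of 2 endothelial markers (VWF and CDH5) did so, and CD3E was at 0 in every sample. In bulk RNA a lower value from fewer cells with a transcript and from less of it per cell cannot be told apart.

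Most readthrough genes were scarce beside their partners. The median of their mean FPKM over the 4 samples was 0.675, against 7.06 for the first partners and 4.32 for the second partners. A mean of at least 1 FPKM was reached by 42 of the 95, a mean of at least 10 FPKM by 7, and 14 were under 0.1 FPKM. The lowest was HSPB2-C11orf52, with 0.00781 FPKM in knockdown 2 and 0 elsewhere. Of the 95, 62 lay below both partners and 5 above both: RTEL1-TNFRSF6B, IQCJ-SCHIP1, JMJD7-PLA2G4B, TEN1-CDK3 and EPPIN-WFDC6. The last of these, named because it belongs to that small count, was near 0 with both of its partners. Across the 95 genes the mean level of the readthrough gene had a Spearman correlation of 0.37 with that of the first partner and 0.19 with that of the second. These are descriptions across genes that share 4 libraries and whose fragments overlap.

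NME1-NME2, which joins the genes of nucleoside diphosphate kinases A and B, was the most abundant by far. It was listed at 190 and 191 FPKM in controls 1 and 2, and 176 and 195 FPKM with knockdown. Its partner NME1 stood at 107, 114, 94.3 and 98.2 FPKM in the same order, and NME2 at 221, 247, 226 and 223. The knockdown values surrounded the control values, and the log2 fold change was -0.04 (95% interval -0.30 to 0.22). RPL17-C18orf32, whose upstream partner encodes a protein of the large ribosomal subunit, was listed at 28.7, 28.7, 26.2 and 25.8 FPKM in controls 1 and 2 and knockdown 1 and 2. The groups did not overlap, but the log2 fold change was -0.14 with limma adjusted p = 0.916. SENP3-EIF4A1, which joins a SUMO protease gene to that of a translation initiation helicase, was listed at 16.01, 20.2, 23.5 and 18.9 FPKM, while EIF4A1 itself stood at 218, 191, 189 and 257. DNAJC25-GNG10, joining a J-domain protein gene to a G protein gamma subunit gene, was listed at 10.5, 9.82, 9.33 and 9.65 FPKM. The limma adjusted p of these 4 genes ran from 0.916 to 0.999.

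**Figure D1:**
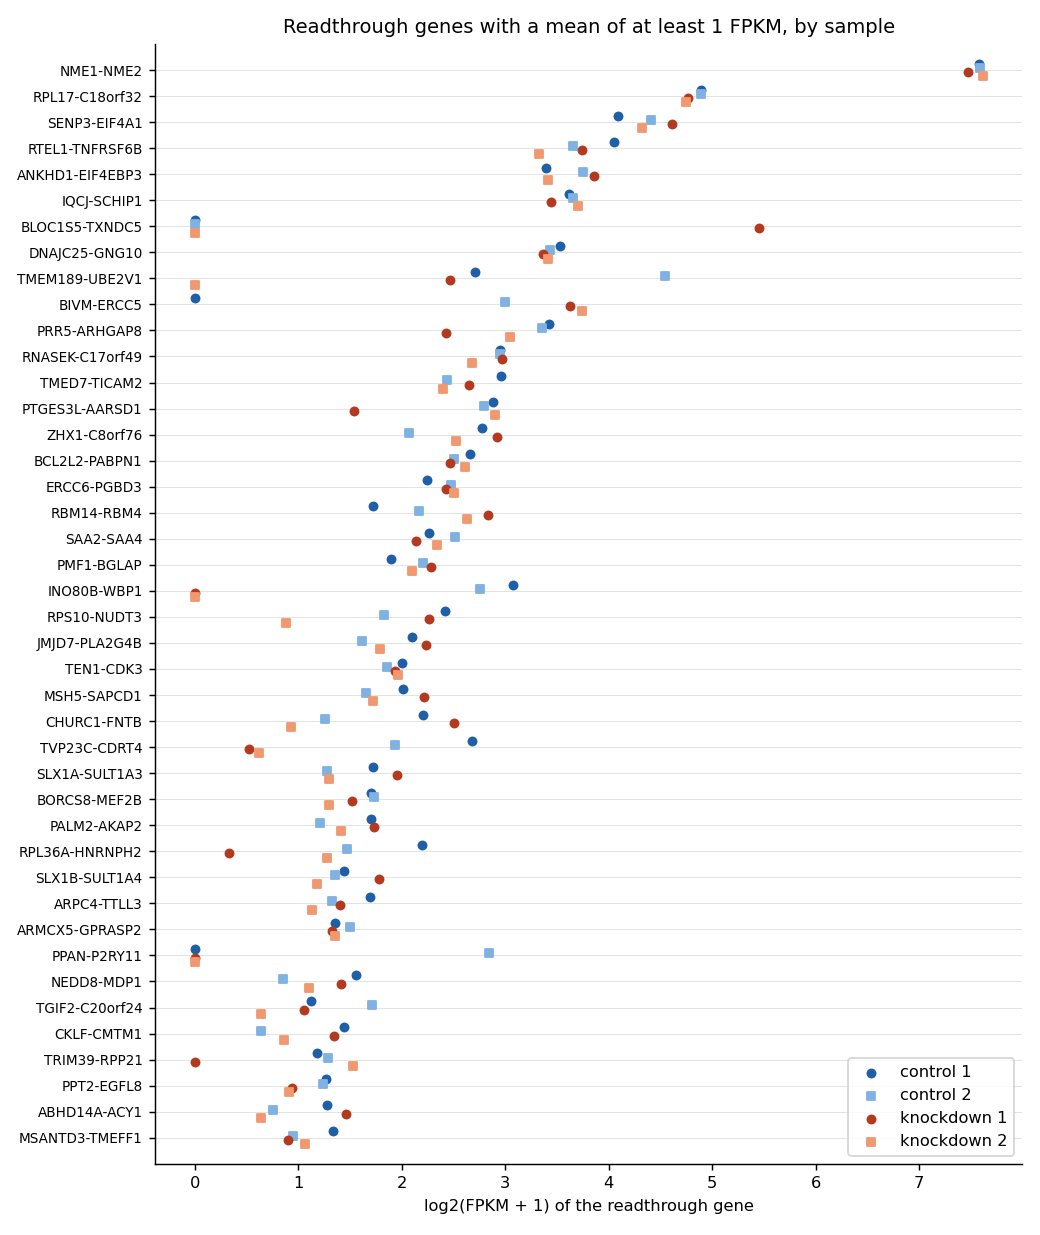
Level of the 42 readthrough genes whose mean reached 1 FPKM, ordered by mean, as log2(FPKM + 1) on the horizontal axis. Each point is 1 sample (circles, replicate 1; squares, replicate 2; blue, control; red and orange, knockdown). NME1-NME2 lies far to the right with its 4 points together, and points at 0 beside points above 2 mark INO80B-WBP1, BLOC1S5-TXNDC5, BIVM-ERCC5, TMEM189-UBE2V1 and PPAN-P2RY11.

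To set each readthrough gene against its locus, its FPKM was divided by the summed FPKM of the gene and its 2 partners. Since FPKM is corrected for length, this sum can shift with how fragments are shared among genes of unlike length. A joined transcript counts once in it, while separate transcripts of the partners count once each. Over the 93 genes with a summed mean of at least 1 FPKM, the median share was 3.58%. It was 9.96% of the readthrough gene plus the upstream partner alone, and 15.2% of the readthrough gene plus the downstream partner alone. The share was under 5% in 50 genes, from 10% to 50% in 28, and 50% or more in 3. The per-sample medians were 3.78% and 4.201% in the controls, against 3.52% and 2.07% with knockdown. Knockdown 2 thus had the lowest median, and knockdown 1 was close to control 1. Genes with a protein-coding transcript in GENCODE 29 had a median share of 5.47% (57 genes), and those without one 2.07% (33 genes). The share had a Spearman correlation of -0.18 with the gap between the partners over the 93 genes.

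In a few loci the joined gene held most of the sum. RTEL1-TNFRSF6B (chromosome 20, 62290653 to 62330037, plus strand) joins RTEL1, a helicase that maintains telomeres, to TNFRSF6B, a soluble decoy receptor for FAS ligand. It was listed at 15.6 and 11.6 FPKM in controls 1 and 2, and 12.4 and 9.01 FPKM with knockdown. RTEL1 itself stood at 3.74, 5.86, 4.68 and 2.99 FPKM, and TNFRSF6B was at 0.000859 FPKM or less in every sample. Most of the FPKM of this locus was therefore listed on the joined gene, with a share of 80.6%, 66.4%, 72.5% and 75.1%. IQCJ-SCHIP1, which runs from IQCJ into the gene of a merlin-interacting protein, was listed at 11.3, 11.6, 9.88 and 12.0 FPKM. IQCJ was at 0 in all 4 samples and SCHIP1 at 6.23, 7.31, 6.09 and 7.16 FPKM, so the share stayed between 61.4% and 64.4%. TEN1-CDK3, which joins a subunit of the telomeric CST complex to a cyclin-dependent kinase, was listed at 3.01, 2.62, 2.81 and 2.90 FPKM with a share of 48.0% to 56.9%. JMJD7-PLA2G4B, joining a hydroxylase gene to that of a cytosolic phospholipase A2, had a share of 35.4% to 40.2%. In these 4 loci the share in the controls and in the knockdown samples lay in the same range or within 5 percentage points of it.

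ANKHD1-EIF4EBP3 and PTGES3L-AARSD1 had large shares that varied more. ANKHD1-EIF4EBP3 joins a KH-domain protein gene to that of an inhibitor of the cap-binding factor eIF4E, and its share was 31.2% and 52.9% in the controls, against 47.9% and 42.9% with knockdown. The spread between the controls was wider than the difference between the groups. PTGES3L-AARSD1, whose downstream partner encodes an enzyme that removes mischarged amino acids from tRNA, was listed at 6.36, 5.96, 1.90 and 6.49 FPKM. Its partner AARSD1 stood at 9.20, 6.26, 16.2 and 6.19 FPKM. Knockdown 1 was low for the joined gene and high for AARSD1, while knockdown 2 was at the level of the controls.

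**Figure D2:**
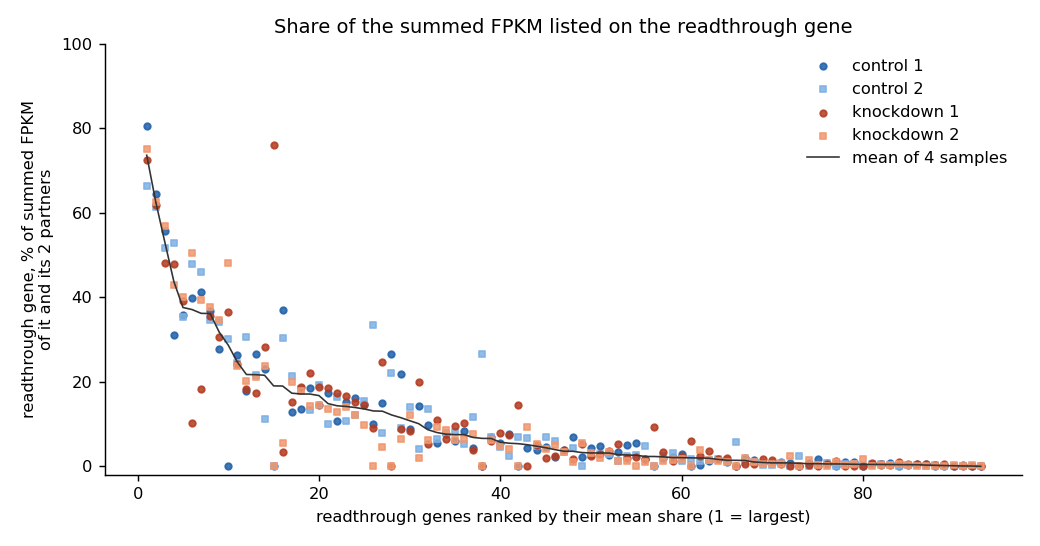
Share of the summed FPKM of a readthrough gene and its 2 partners that was listed on the readthrough gene, in percent, for 93 genes ranked by their mean share. Points are samples and the line is the mean of the 4 samples; most genes lie under 10%, and isolated points far from the line, such as 76.2% for BLOC1S5-TXNDC5 in knockdown 1, are single samples.

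The comparison of knockdown with control asks whether any readthrough gene differed in level when hnRNPF was depleted. Genes whose mean reached 1 FPKM were tested with limma on log2(FPKM + 1), with adjustment over all 13110 such genes. None of the 42 tested readthrough genes passed an adjusted p of 0.05, against 1 of all tested genes (0.00763%), which was HNRNPF. The adjusted p of the 42 ran from 0.236 to 0.999. At an unadjusted p under 0.05 there were 4 readthrough genes (1 higher and 3 lower), beside 6.08% of all tested genes. On the log2 scale 17 of the 42 lay above 0 and 25 below, with a median of -0.08 (-0.13 to -0.03 with 1 sample left out), while the median of all tested genes was 0.00. The 2 groups did not overlap in 13 of the 42, with 2 higher and 11 lower in the knockdown samples. Over all tested genes the groups did not overlap in 34.6%, with 17.5% higher and 17.1% lower. The total without overlap was thus close to the background, with more lower than higher among the 42 where all tested genes divided about evenly. A readthrough gene that is at 0 in 1 group passed the filter only through the other, so these counts describe the tested genes and not all 95.

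Over all 95 readthrough genes, with no filter, the groups did not overlap in 23 with lower (24.2%) and 10 with higher (10.5%) knockdown values, and they overlapped in 62. The same shares over the 30943 genes above 0 in any sample were 12.8% lower and 15.7% higher. Lower ones outnumbered higher ones in each count with 1 sample left out except that without knockdown 2, while the shares over all genes moved too. Without knockdown 2, 33 of 94 readthrough genes were lower and 37 higher, beside 20.4% lower and 40.9% higher among all genes. Without control 1 the numbers were 30 lower and 28 higher of 94, beside 23.6% and 37.7%. Without control 2 they were 40 and 18 of 93, beside 40.5% and 24.0%, and without knockdown 1 they were 39 and 21 of 93, beside 31.9% and 27.7%. The share of lower genes was above that of all genes in each of these counts, by the least without control 2. The FPKM of all 95 genes summed to 415 and 424 in the controls and to 435 and 384 in the knockdown samples. Without NME1-NME2 and BLOC1S5-TXNDC5, the pair with the largest single values, the sums were 225 and 233 in the controls, against 216 and 189 with knockdown. This pair was picked after its values were seen. BLOC1S5-TXNDC5 was above 0 in knockdown 1 alone, so leaving it out lowered only the sum of that sample. The lower sums without the pair are therefore no evidence of a difference between the groups. Knockdown 2 was the lowest in both sums.

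The genes described next were picked by the size of their difference in this same contrast or because earlier results had named them, so their values are a description. INO80B-WBP1 (ENSG00000274049.4, chromosome 2, 74682215 to 74688011, plus strand) joins INO80B, a subunit of the INO80 chromatin remodelling complex, to WBP1, a WW-domain binding protein, across a gap of 368 bp. Controls 1 and 2 had 7.45 and 5.76 FPKM of it, and neither knockdown sample had a value above 0. INO80B stood at 6.46 and 8.28 FPKM in controls 1 and 2, and 13.5 and 14.0 FPKM with knockdown. WBP1 stood at 14.1, 12.1, 16.9 and 17.2 FPKM in the same order. The joined gene thus had values above 0 in the controls alone, and each partner was higher in both knockdown samples than in either control. The limma log2 fold change was -2.92 (SE 0.18, adjusted p = 0.236) for INO80B-WBP1, 0.82 (adjusted p = 0.540) for INO80B and 0.37 (adjusted p = 0.805) for WBP1. Because INO80B-WBP1 was listed at 0 in both knockdown samples, its difference depends on the pseudocount and was -3.82 at 0.5 and -6.06 at 0.1 FPKM. It passed the filter only through the controls, and with median-ratio scaling its adjusted p was 0.0308. The summed FPKM of the locus was 28.0, 26.1, 30.4 and 31.2, a log2 fold change of 0.18 (95% interval -0.07 to 0.44). The share of the joined gene went from 26.6% and 22.1% in the controls to 0% in the knockdown samples while the sum differed little.

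TVP23C-CDRT4 (ENSG00000259024.6, chromosome 17, 15339338 to 15466875, minus strand) showed the same arrangement with values in every sample. TVP23C encodes a Golgi membrane protein, and the annotations of TVP23C and CDRT4 overlap each other. The joined gene was listed at 5.399 and 2.81 FPKM in controls 1 and 2, and 0.440 and 0.536 FPKM with knockdown, which is 8.41-fold lower in the mean. CDRT4 had 2.30 and 0.507 FPKM in controls 1 and 2, and 4.58 and 2.44 FPKM with knockdown, and TVP23C at 6.92, 5.95, 8.39 and 6.77. The joined gene and CDRT4 did not overlap between the groups and differed in opposite directions, while TVP23C overlapped. On the log2 scale TVP23C-CDRT4 differed by -1.73 (SE 0.29, adjusted p = 0.513), or -2.77 with a pseudocount of 0.1, and the summed locus by -0.03 (95% interval -0.74 to 0.69). Its share was 36.9% and 30.4% in the controls, against 3.28% and 5.50% with knockdown.

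PRR5-ARHGAP8 (chromosome 22, 45098113 to 45258586, plus strand) joins PRR5, a component of the mTOR complex 2, to ARHGAP8. It was listed at 9.76 and 9.22 FPKM in controls 1 and 2, and 4.37 and 7.24 FPKM with knockdown. ARHGAP8 stood at 9.16 and 6.82 FPKM in controls 1 and 2, and 14.6 and 7.29 FPKM with knockdown. Only knockdown 1 was far from the controls for either gene, with a share of 18.2% against 39.4% in knockdown 2. The log2 fold change of PRR5-ARHGAP8 was -0.66 (SE 0.24, adjusted p = 0.817), or -0.35 without knockdown 1, and that of the summed locus -0.05. Among the other genes without overlap, PPT2-EGFL8, whose upstream partner encodes a lysosomal thioesterase, was listed at 1.41 and 1.36 FPKM in controls 1 and 2, and 0.921 and 0.885 FPKM with knockdown. Its partner PPT2 was higher in the knockdown samples (14.0 and 12.1 against 10.7 and 7.61 FPKM). BORCS8-MEF2B, joining a lysosome-positioning factor to a transcription factor gene, was listed at 2.25, 2.33, 1.87 and 1.45 FPKM, and TGIF2-C20orf24, which starts in a homeobox repressor gene, at 1.18, 2.27, 1.08 and 0.562. The adjusted p of these last 3 genes ran from 0.864 to 0.890.

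RPL36A-HNRNPH2 on the X chromosome joins a ribosomal protein gene to HNRNPH2, which encodes a close relative of hnRNP F. It was listed at 3.57 and 1.77 FPKM in controls 1 and 2, and 0.256 and 1.42 FPKM with knockdown, lower in both but nearly level between control 2 and knockdown 2. HNRNPH2 itself stood at 41.1, 45.0, 40.7 and 6.30 FPKM, so only knockdown 2 was low. RPL36A was listed at 339, 355, 300 and 279 FPKM and made up most of the sum. The joined gene and HNRNPH2 were therefore lowest in different knockdown samples, and the log2 fold change of the joined gene was -1.03 (SE 0.42, adjusted p = 0.833). It was -0.67 without control 1, -0.55 without knockdown 1 and -1.83 with a pseudocount of 0.1.

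In the other direction, RBM14-RBM4 (chromosome 11, 66384097 to 66413940, plus strand) joins the genes of a transcriptional coactivator with RNA-binding domains and of a splicing regulator. It was listed at 2.30 and 3.49 FPKM in controls 1 and 2, and 6.12 and 5.19 FPKM with knockdown, which is 1.95-fold higher in the mean. RBM14 stood at 18.7, 16.1, 14.6 and 17.7 FPKM and RBM4 at 20.3, 35.2, 35.3 and 33.5, and both overlapped between the groups. The share of RBM14-RBM4 was 5.56% and 6.37% in the controls, against 10.9% and 9.22% with knockdown, with a log2 fold change of 0.79 (SE 0.21, adjusted p = 0.730). BIVM-ERCC5, the other tested gene that was higher without overlap, had a 0 in control 1 and is described with the genes of that kind.

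Several readthrough genes were listed at 0 in some samples and at several FPKM in others. Of all 13110 tested genes, 15 (0.114%) held a 0 in at least 1 sample, and 6 of the 15 were readthrough genes. That is 6 of 42 tested readthrough genes (14.3%) and 0 of 155 tested partner genes. The 6 are INO80B-WBP1, BLOC1S5-TXNDC5, BIVM-ERCC5, TMEM189-UBE2V1, PPAN-P2RY11 and TRIM39-RPP21, the last pair named because they belong to that count. The sum of the readthrough gene and its partners stayed within a ratio of 1.20 to 1.68 between the highest and the lowest sample in these 6 loci. An exact 0 in a table without counts can be a failed estimate, so these genes are described as listed at 0 and no ratio of FPKM against such a group is given. Their fitted differences are on the log2(FPKM + 1) scale and depend on the pseudocount. Over all 95 genes, 22 held a 0, 8 of them in 1 sample only, and 6 had a value in 1 sample only.

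BLOC1S5-TXNDC5 (chromosome 6, 7881755 to 8064597, minus strand) runs from the gene of a subunit of BLOC-1, a complex in lysosome-related organelle formation, into TXNDC5, a protein disulfide isomerase of the endoplasmic reticulum. Knockdown 1 had 42.7 FPKM, and the other 3 samples were listed at 0. TXNDC5 stood at 89.4 and 76.3 FPKM in the controls, 9.90 in knockdown 1 and 64.8 in knockdown 2. In knockdown 1 the joined gene held 76.2% of the sum, and TXNDC5 was low in that sample alone. BLOC1S5 was listed at 5.04, 6.04, 3.45 and 5.64 FPKM. EEF1E1-BLOC1S5, the readthrough gene that shares BLOC1S5 from the other side, was at 0.28 FPKM or less. With all genes of this joined locus summed, the values were 132, 114, 89.4 and 101 FPKM, a log2 fold change of -0.36 (SE 0.12, adjusted p = 0.801). The log2 fold change of BLOC1S5-TXNDC5 alone was 2.73 (adjusted p = 0.916), and 5.45 (adjusted p = 0.0497) without knockdown 2, which leaves knockdown 1 as the only knockdown sample and assumes that it varies like the others.

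BIVM-ERCC5 (chromosome 13, 103459704 to 103524748, plus strand) joins BIVM to ERCC5, an endonuclease of nucleotide excision repair. Its values were 0 in control 1, 6.97 FPKM in control 2, and 11.4 and 12.4 in the knockdown samples. ERCC5 was listed at 19.3 FPKM in control 1 and at 9.70, 11.2 and 8.77 in the other samples, and BIVM at 11.5, 6.43, 8.59 and 4.59. Both partners were thus highest in the sample in which the joined gene was at 0, and the sum was 30.8, 23.1, 31.1 and 25.7 FPKM. The log2 fold change of BIVM-ERCC5 was 2.19 (SE 1.01, adjusted p = 0.864), and that of the sum 0.08. The former was 0.69 without control 1, 3.68 without control 2 and 3.83 with a pseudocount of 0.1.

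TMEM189-UBE2V1 (chromosome 20, 48697661 to 48770174, minus strand) joins a lipid desaturase gene to that of a ubiquitin-conjugating enzyme variant. Its values were 5.53 and 22.4 FPKM in the controls, 4.53 in knockdown 1 and 0 in knockdown 2. TMEM189 stood at 3.93, 4.28, 5.31 and 9.49 FPKM and was highest where the joined gene was at 0, while UBE2V1 stayed between 40.1 and 45.8. The groups did not overlap, but in FPKM the controls differed from each other by more than control 1 differed from either knockdown sample. The joined gene had a wide error (log2 fold change -2.39, SE 1.03, adjusted p = 0.850), and this value was -1.47 without control 2, -3.63 without knockdown 1, -1.16 without knockdown 2 and -4.05 with a pseudocount of 0.1. PPAN-P2RY11, which joins a ribosome biogenesis gene to that of a purinergic receptor, was listed at 6.19 FPKM in control 2 and at 0 elsewhere. PPAN stood at 15.6 FPKM in control 2 and at 26.0, 36.2 and 28.2 in control 1, knockdown 1 and knockdown 2. TRIM39-RPP21, from the gene of a ubiquitin ligase into that of a subunit of ribonuclease P, was listed at 1.27, 1.44, 0 and 1.90 FPKM, and TRIM39 at 5.11, 4.44, 8.19 and 3.005. In these 3 loci the upstream partner was highest in a sample in which the joined gene was at 0, and for PPAN it was lowest in the only sample in which the joined gene was not.

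**Figure D3:**
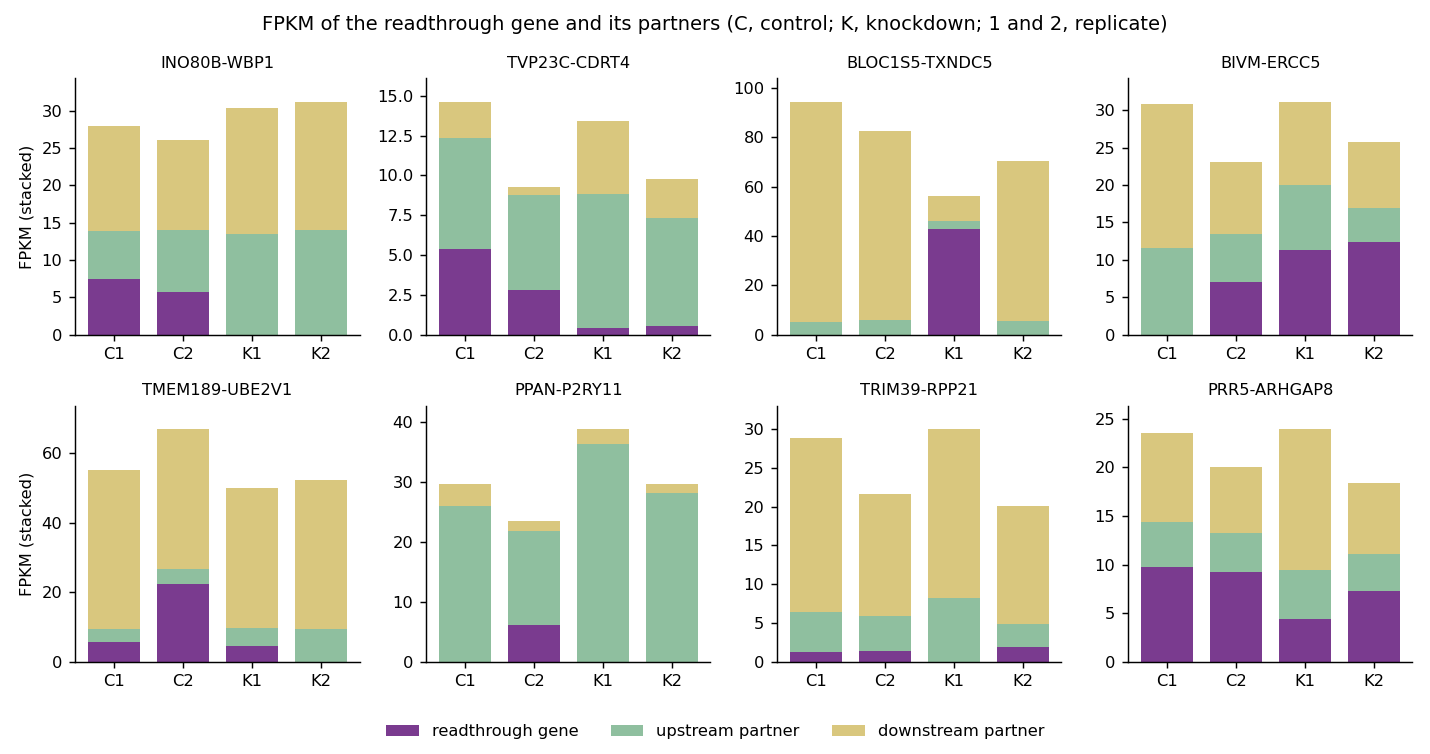
FPKM of the readthrough gene (purple), its upstream partner (green) and its downstream partner (yellow), stacked, in controls 1 and 2 (C1, C2) and knockdown samples 1 and 2 (K1, K2) for 8 loci. Each panel has its own vertical axis from 0; the bar heights vary less than the purple part, which is listed at 0 in both knockdown samples of INO80B-WBP1 and above 0 in knockdown 1 alone for BLOC1S5-TXNDC5.

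Samples of 1 group were compared with each other to see how far each kind of gene varied within it. The median absolute log2 difference between the 2 controls was 0.35 for the tested readthrough genes, 0.22 for their partners, 0.22 for the summed loci and 0.19 for all tested genes. Between the 2 knockdown samples it was 0.29, 0.20, 0.17 and 0.17. Of the 36 tested readthrough genes with a value in every sample, 28 had a wider range than the sum of their locus. The median ratio of the highest to the lowest sample was 1.74 for these 36 genes and 1.29 for their sums. The sum holds the readthrough gene itself, and most readthrough genes were scarcer than both partners. None of these spreads was matched for level. They therefore do not show whether readthrough genes vary more than other genes of the same level. The mean of the readthrough gene differed between the groups in the opposite direction to the sum of its 2 partners in 26 of 42 genes and in the same direction in 16. How the authors' processing shared fragments among the overlapping genes is not given, and its part in these values was not tested.

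The share of the readthrough gene differed by more than 5 percentage points between the group means in 12 of the 93 genes, 9 lower and 3 higher in the knockdown samples, and the median absolute difference was 1.09 points. The lower ones were TVP23C-CDRT4 (-29.2 points), INO80B-WBP1 (-24.3), TMEM189-UBE2V1 (-17.1), PRR5-ARHGAP8 (-14.8), PTGES3L-AARSD1 (-13.6), PPAN-P2RY11 (-13.2), PPT2-EGFL8 (-5.83) and 2 others named for this count after their values were seen, TNFSF12-TNFSF13 (-7.86) and ARMCX5-GPRASP2 (-5.004). The higher ones were BLOC1S5-TXNDC5 (38.1 points), BIVM-ERCC5 (27.2) and RBAK-RBAKDN (8.82). In PTGES3L-AARSD1, PPAN-P2RY11 and BLOC1S5-TXNDC5 the difference came from 1 sample. In INO80B-WBP1, TVP23C-CDRT4 and PPT2-EGFL8 it was present in both samples of each group. The share of PPT2-EGFL8 was 9.67% and 13.5% in the controls, against 5.29% and 6.24% with knockdown. The shares of TMEM189-UBE2V1, PRR5-ARHGAP8, BIVM-ERCC5 and RBAK-RBAKDN did not overlap between the groups either, but differed more between samples of 1 group.

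The summed loci were then tested in a table in which each readthrough gene and its partners were replaced by their sum. Of 93 loci 91 reached a mean of 1 FPKM, and none passed an adjusted p of 0.05, against 1 of all 13004 genes and loci tested (0.00769%). At an unadjusted p under 0.05 there were 5 loci (2 higher and 3 lower), beside 6.09% over the table. The groups did not overlap in 34 loci, 16 higher and 18 lower, beside 34.7% over the table (17.5% higher and 17.2% lower). The median log2 fold change of the loci was -0.01, with 44 above 0 and 47 below. The summed loci thus stood close to the background in each of these counts. Of the 188 partner genes 155 were tested and none passed. An unadjusted p under 0.05 was found for 11, beside 6.08% of all tested genes. The groups did not overlap in 51 (30 higher and 21 lower), beside 34.6% of all tested genes (17.5% higher and 17.1% lower). Both totals were close to the background.

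**Figure D4:**
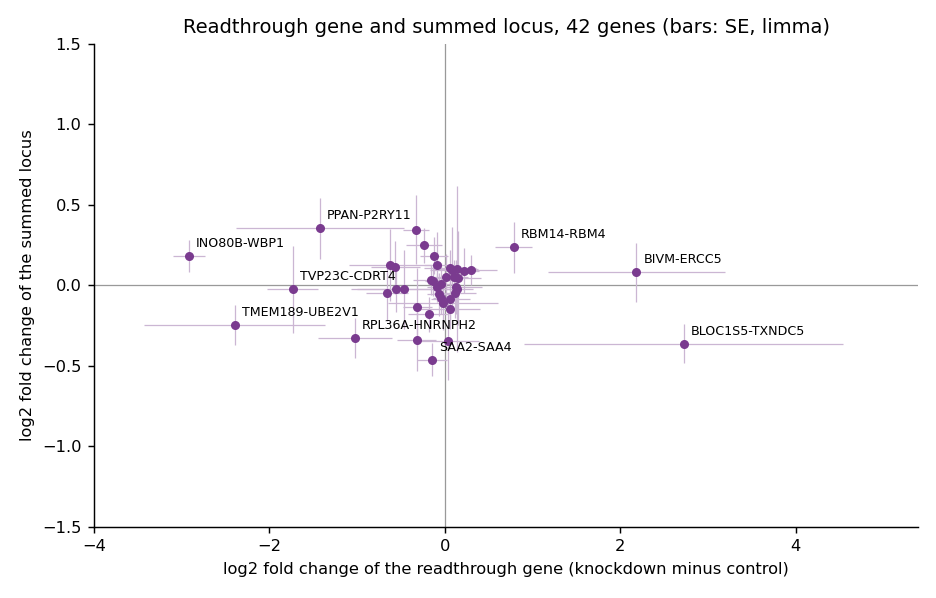
Log2 fold change (knockdown minus control, log2(FPKM + 1), limma) of the summed locus on the vertical axis against that of the readthrough gene itself on the horizontal axis, for the 42 tested readthrough genes, with standard errors as bars. The readthrough genes spread from -2.92 for INO80B-WBP1 to 2.73 for BLOC1S5-TXNDC5, while the summed loci stay between -0.46 for SAA2-SAA4 and 0.35 for PPAN-P2RY11.

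The loci with the largest differences in their sum differed through a partner and not through the readthrough gene. The sum of MINOS1-NBL1 and its partners was 78.2 and 69.5 FPKM in the controls, against 132 and 121 with knockdown (log2 fold change 0.77, SE 0.11, adjusted p = 0.435). NBL1, a secreted antagonist of bone morphogenetic proteins, accounted for this with 49.9, 46.3, 102 and 94.97 FPKM, while MINOS1-NBL1 itself was at 0.709 FPKM or less. SAA2-SAA4 joins serum amyloid A genes, and its locus summed to 98.8 and 98.3 FPKM in the controls, against 67.0 and 75.8 with knockdown (log2 fold change -0.46, SE 0.10, adjusted p = 0.606). SAA2 stood at 92.5, 92.8, 62.4 and 71.3 FPKM, and SAA2-SAA4 at 3.80, 4.70, 3.41 and 4.07. The readthrough gene thus overlapped between the groups while SAA2 did not.

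The other 3 of these loci were expressed at lower levels. The sum of RBAK-RBAKDN and its partners was 2.94 and 1.72 FPKM in the controls, against 1.03 and 0.683 with knockdown, of which RBAK, a zinc finger repressor gene, held 2.14, 1.52, 0.740 and 0.515. ZNF816-ZNF321P was 0 in both controls, with 0.0858 and 0.0651 FPKM after knockdown, under a locus sum of 3.25, 4.79, 7.46 and 5.96. TM4SF19-TCTEX1D2 was at 0.601 FPKM or less under a sum of 16.7, 11.7, 11.3 and 8.91. Their adjusted p ran from 0.774 to 0.874, and in each the partners outweighed the joined gene.

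Factors that end transcripts were examined as the other genes of the pathway. The list held 36 genes of the cleavage and polyadenylation complex, the poly(A) machinery and the termination of RNA polymerase II, of which 34 were tested. None passed an adjusted p of 0.05 and none had an unadjusted p under 0.05. On the log2 scale 13 lay above 0 and 21 below, with a median of -0.03, and the groups did not overlap in 4 higher and 6 lower, beside 17.5% and 17.1% of all tested genes. The smallest p belonged to RPRD1A, a regulator that binds the polymerase tail, at 29.3, 26.9, 24.0 and 22.4 FPKM (log2 fold change -0.27, adjusted p = 0.830). XRN2, the exonuclease that degrades RNA downstream of the cut, was listed at 42.03, 43.2, 46.6 and 47.7 FPKM (0.14, adjusted p = 0.916). RPRD1B stood at 12.3, 5.07, 5.49 and 4.37 FPKM, with only control 1 high. CPSF3, the endonuclease that makes the cut, was listed at 28.5, 30.1, 34.2 and 30.9 FPKM (0.14, adjusted p = 0.922).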

How the data were processed

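The authors deposited FPKM (fragment numbers corrected for transcript length and sequencing depth) for 60302 genes in 4 samples, 1 column per sample, per the file headers. The submitters' processing notes list STAR (2.5.3a) beside Cuffdiff (2.2.1), without their roles, and GRCh37 as build. The annotation release is not given in the sources used here. Coordinates are those of the deposited table. Between 40.8% and 45.2% of low values of single-exon genes of at least 500 bp were whole multiples of the lowest step (within 0.02), so read numbers could not be recovered and a count test was not used.

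Genes whose mean reached 1 FPKM were compared as log2(FPKM + 1), which understates the change of low genes, with limma 3.58.1 in R 4.3.3. The fit had an intensity trend, no covariate, all 4 samples and Benjamini-Hochberg adjustment over all tested genes, and was two-sided. It was tested on simulated data. With 2 samples a group the smallest exact permutation p is 0.333, so no such test was made. A second table held each readthrough gene and its partners as 1 sum, and loci that share a gene were joined. Fold changes called fold are ratios of mean FPKM. GENCODE 29, which is on another build, supplied transcripts by gene identifier. Python 3.11.15, pandas 2.3.3, numpy 2.4.6, scipy 1.17.1 and matplotlib 3.10.9 were used for summaries and figures.

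The genes named are HNRNPF, 3 readthrough genes known from earlier results, the 10 highest in mean FPKM, up to 8 per direction with the largest log2 fold change among tested genes without overlap, those at 0 in 1 group and at 1 FPKM or more in the other, the 6 with the largest share, the 5 summed loci with the largest difference, their partners, and 4 termination factors with the smallest p. The members and lists were chosen with earlier results of these data known. Alternatives were pseudocounts of 0.1 and 0.5, no filter, a filter at 5 FPKM, median-ratio scaling, quantile normalization, no trend, the replicate number as a block, other denominators of the share and leaving out each sample.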

Additional observations from a re-analysis of the deposited data

How the results depend on the processing

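No summed locus passed under any alternative run. The number of tested readthrough genes that passed was 0, except 1 with median-ratio scaling (INO80B-WBP1, which is at 0 in both knockdown samples and passed the filter only through the controls) and 0 to 1 when samples were left out in turn (BLOC1S5-TXNDC5, without knockdown 2). Over all tested genes it was 1 in the reported fit, 0 without the filter, 0 without the trend, 0 with the replicate block, 2 with median-ratio scaling and 0 to 2 with samples left out. The log2 fold change of HNRNPF was -3.05 without the filter, without the trend and with the replicate block, but with adjusted p of 0.259, 0.0995 and 0.164, and ran from -3.13 to -2.98 with samples left out. Same-numbered samples deviated together (correlation 0.39 over 13110 genes), but with 2 pairs and no label for what the number marks, the pairing was not used. The median share of 3.58% was 9.96% when the denominator was the readthrough gene plus the upstream partner and 15.2% when it was that plus the downstream partner. Of 311 values of 27 named genes and loci under alternatives, 9 changed sign. TEN1-CDK3 went from 0.02 to -0.031 with quantile normalization. With samples left out, TEN1-CDK3 ran from -0.056 to 0.090, ANKHD1-EIF4EBP3 from -0.16 to 0.29, JMJD7-PLA2G4B from -0.092 to 0.40, NME1-NME2 from -0.11 to 0.035, IQCJ-SCHIP1 from -0.19 to 0.062 and PTGES3L-AARSD1 from -1.30 to 0.065; the cause was not tested. Of the 42 tested readthrough genes, 13 did not overlap, against 33 of 95 without the filter and 5 of 15 with the filter at 5 FPKM. Over all genes with no filter, 12.8% were lower and 15.7% higher without overlap. The number was 23 to 33 with samples left out, but the comparison is then 2 against 1. The shares over all genes rose as well, as given with the 95 genes above. At an unadjusted p under 0.05 there were 4 of 42, beside 6.08% of all tested genes. There were 8 of 95 without the filter and 1 of 15 with the filter at 5 FPKM. The shares of all genes at an unadjusted p under 0.05 were not counted under these filters. Nor was the share without overlap counted at 5 FPKM, so these numbers have no background beside them. For the summed loci the number at an unadjusted p under 0.05 went from 5 to 12 with the replicate block. The share over the whole table was not counted under that fit, so the rise is not read as one of these loci. Leaving samples out of the count over all 95 genes was added after seeing the data. With 2 samples a group and unknown depth, differences may have been missed. The 95% intervals given are not adjusted over all tested genes, so they are not limits of detection. In the reported fit the interval of INO80B-WBP1 was -3.40 to -2.44 and that of TVP23C-CDRT4 -2.50 to -0.96, and neither gene passed the adjusted p.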
